A study of Mus musculus with 14 samples.

Results

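The interferon-stimulated antiviral genes are a group of 40 protein-coding mouse genes whose transcription follows type I interferon. They were chosen by gene name from a fixed list, which was drawn up with earlier results of these data known. All 40 were found among the 55889 genes counted without dextran sulfate sodium (DSS) and among the 54721 genes counted after DSS. RNA was sequenced from 14 C57BL/6N mice in 2 experiments, from tissue that the study describes as colon and the labels as small intestinal crypts. The first compared 4 wild-type (WT) mice with 4 *MiR-29ab1*-/- mice, and neither group received DSS. The second compared 3 WT mice with 3 *MiR-29ab1*-/- mice, and all 6 had drunk 3.5% DSS, a chemical that injures the colon epithelium, for 3 days. The study states that a WT sample and a *MiR-29ab1*-/- sample were left out of its analysis. It does not say which, or whether they are among these 14. The *MiR-29ab1*-/- mice are germline knockouts that lack the *Mir29a* and *Mir29b-1* locus in every cell, so that no cell type is singled out by the model. The methods of the study give 8 to 12 weeks as the usual age and use littermates of both sexes matched for age and sex, but the labels tie no sample to an age, a sex or a litter.

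The type I interferons bind the receptor IFNAR1 and IFNAR2, whose kinases JAK1 and TYK2 phosphorylate transcription factors, among them STAT2. Phosphorylated STAT2 works with IRF9 in a complex that binds the interferon-stimulated response element in the promoters of antiviral genes, and type III interferon reaches the same complex through a receptor found mainly on epithelium. In the gut these genes restrict viruses in epithelial cells, and several of them (*Irf7*, *Irf9*, *Stat2*, *Ddx58*, *Ifih1*) belong to the machinery that makes or senses interferon.

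The study describes colon tissue, whereas the tissue entry of each sample reads small intestinal crypts. The colon gene *Car1* averaged 3396 CPM (read counts scaled by library size and edgeR's TMM factors) in WT mice without DSS, and the small-intestinal genes *Fabp2*, *Alpi*, *Sis* and *Apoa4* averaged 216, 16.1, 5.03 and 0.0275 CPM. Smooth muscle markers (*Acta2*, *Myh11*, *Des*) summed to at most 1.54 CPM in any mouse. Epithelial markers (*Epcam*, *Cdh1*, *Krt8*, *Krt20*, *Vil1*) summed to 7185 to 14982 CPM over all mice. Fibroblast (*Pdgfra*, *Col1a1*, *Dcn*) and endothelial markers (*Pecam1*, *Cdh5*) reached at most 24.7 and 3.77 CPM. By these markers the RNA came mainly from epithelium. Total counts were 14231157 to 18185020 per mouse without DSS, where every *MiR-29ab1*-/- library was smaller than every WT library, and 20076719 to 23153149 after DSS. No read fell on *Mir29a* in any mouse. *Mir29b-1* had 1 read each in *MiR-29ab1*-/- mice 3 and 4 without DSS and none in any other mouse, so the deletion itself was not detectable. *Lncpint*, the neighbouring noncoding RNA, had 7 to 23 reads in WT against 1386 to 2889 in knockout mice without DSS, and 6 to 14 against 706 to 1144 after DSS, with no library going against its label. Mitochondrial genes took 5.71% to 13.9% of the reads without DSS and 6.15% to 20.2% after DSS, where the highest was *MiR-29ab1*-/- mouse 2.

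The microRNAs removed by the deletion are shown first, because the same seed (bases 2 to 8, in capitals) defines the sites they can pair with. The sequences are those of RefSeq on GRCm38.p6, and both lie on the reverse strand of chromosome 6. *Mir29b-2* on chromosome 1 gives the same mature miR-29b-3p and was not deleted.
miR-29a-3p (chr6:31062673-31062694): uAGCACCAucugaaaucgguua
miR-29b-3p (chr6:31063025-31063047): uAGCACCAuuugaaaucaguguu

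A match to this seed, TGGTGCT, was present in an annotated 3′ UTR (GENCODE vM21, GRCm38) of 3 of the 40 genes, and in 16.3% of the 12782 tested genes with a 3′ UTR without DSS. The 3 were *Rsad2*, *Ddx58* and *Samhd1*, printed below with the match in capitals and all on the reverse strand. A match of letters is a description of the transcript and says nothing on whether the microRNA binds it.
Rsad2 (chr12:26444098-26444122): ggtttttttTGGTGCTtatattaat
Ddx58 (chr4:40205643-40205667): gtttcaagcTGGTGCTgtccacaca
Samhd1 (chr2:157104574-157104598): ctgttagctTGGTGCTtccctggga

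The promoters were searched for the letters of the response element. The letters GAAANNGAAA, or TTTCNNTTTC on the other strand, were searched in the 250 bases before and 50 bases after the transcription start of RefSeq genes (GRCm38.p6), where overlapping matches were all counted. Of the 31 genes in that table, 18 (58.1%) held the letters, against 1079 of 27025 genes in all (3.99%). *Dhx58*, *Mx1*, *Mx2*, *Oas2*, *Parp14*, *Parp9*, *Rtp4*, *Usp18* and *Zbp1* were the 9 without an entry. The windows below are printed 5′ to 3′ along the gene, upstream of the start, with the matching letters in capitals. They were chosen to show the 2 defining genes of the response (*Rsad2* and *Ifit1*), the gene with 3 overlapping matches (*Isg15*) and both pairs of near-identical copies.
Rsad2 (chr12:26456538-26456597): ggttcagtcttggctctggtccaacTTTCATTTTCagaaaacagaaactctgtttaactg
Ifit1 (chr19:34640760-34640819): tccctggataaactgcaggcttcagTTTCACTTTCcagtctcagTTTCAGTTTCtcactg
Isg15 (chr4:156200862-156200921): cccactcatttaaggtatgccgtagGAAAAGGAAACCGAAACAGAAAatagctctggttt
Ifit3 (chr19:34583348-34583407): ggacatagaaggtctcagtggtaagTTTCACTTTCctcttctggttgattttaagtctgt
Ifit3b (chr19:34607744-34607803): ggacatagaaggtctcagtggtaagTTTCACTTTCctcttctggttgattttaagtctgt
Oas1a (chr5:120907526-120907570): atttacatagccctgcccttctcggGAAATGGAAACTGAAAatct
Oas1g (chr5:120887614-120887656): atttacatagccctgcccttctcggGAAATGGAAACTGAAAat

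The windows of *Ifit3* and *Ifit3b* were equal in 60 of 60 bases and those of *Oas1a* and *Oas1g* in 43 of 43. The likeness goes on into the transcripts. Of all stretches of 50 bases in its transcripts, *Ifit3* shared 51.2% with *Ifit3b*, *Oas1a* shared 57.6% with *Oas1g*, and *Ifitm2* shared 48.5% with other genes, so reads could be split between these copies and their counts are uncertain. *Rsad2* shared no such stretch with another gene, and *Ifitm3* shared 10.02%.

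All 40 genes were expressed in every mouse, with 12 to 5199 reads without DSS and 24 to 15122 after DSS, and all 40 passed the filter on low counts in both experiments. To compare genes, levels were divided by the gene length in the table. Without DSS the median over the 40 genes was 12.2 CPM per kb, against 4.70 CPM per kb over the 15441 tested genes. The highest levels per kb were those of *Ifitm3* and *Ifitm2*, membrane proteins that block viral entry, at 75.0 and 67.0 CPM per kb, then *Oas1a* at 59.9, *Ifit1bl1* at 56.2 and *Isg15* at 51.4. The lowest were *Herc6*, the ligase that attaches ISG15 to proteins, at 1.51, *Mx2*, a GTPase gene, at 1.66 and *Ifit3b* at 2.01. After DSS *Ifit1bl1* and *Isg15* stood at the top with 167 and 128 CPM per kb, and *Herc6*, *Mx2* and *Ifit3b* were again the lowest 3 genes, at 2.05, 2.08 and 4.98 CPM per kb. The experiments were counted into separate tables, and DSS and experiment cannot be told apart, so these levels stand side by side without a test. In bulk RNA, fewer cells of a type and less RNA per cell cannot be told apart either.

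Without DSS, 38 of the 40 genes had a log2 fold change (*MiR-29ab1*-/- over WT) above 0, as did 49.5% of all tested genes, but only *Rsad2*, *Ifit1bl1*, *Cmpk2*, *Ifitm3* and *Xaf1* passed an unadjusted p under 0.05 (edgeR's quasi-likelihood test), and none passed after adjustment over all genes. The median log2 fold change of the 40 genes was 0.59, against -0.0016 over all 15441 genes tested. The 5 genes called higher are 12.5% of the 40, where 2.09% of all tested genes were called higher at the same threshold. The group was chosen with earlier results of these data known, so these shares describe it and are no independent support. No gene of the group was called lower, against 1.58% of all tested genes. At an adjusted p under 0.05 the share over all genes was 0.0194%, and adjusted p-values in the group ran from 0.819 to 1.00.

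*Rsad2* encodes viperin, an enzyme that makes a chain-terminating nucleotide against viral polymerases, and lies at chr12:26442746-26456452 on GRCm38. The WT mice had 7.16, 6.38, 10.8 and 11.9 CPM and the *MiR-29ab1*-/- mice 12.5, 19.1, 23.9 and 20.5 CPM. Every knockout mouse was therefore above every WT mouse, which held for this gene alone among the 40, and for 1.11% of all tested genes. WT mice averaged 9.07 ± 2.71 CPM and knockout mice 19.0 ± 4.77 CPM (SD, n = 4 each). The log2 fold change was 1.07 (standard error 0.25, unadjusted p = 0.00136, adjusted p = 0.819), and an exact two-sided permutation test of log2 CPM gave p = 0.0286, the smallest that 4 mice against 4 allow. With DESeq2 the adjusted p was 0.0287, and over the other tools, filters and scalings it lay between 0.231 and 1.00. In the model over all 14 mice, which shares the spread of both experiments, the unadjusted p was 0.112.

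The other 4 genes called without DSS overlapped between genotypes. *Cmpk2*, the nucleotide kinase gene next to *Rsad2* on chromosome 12, had 16.3, 19.0, 27.7 and 18.3 CPM in WT and 19.5, 29.0, 39.8 and 49.9 CPM in knockout mice (log2 fold change 0.76, standard error 0.28, unadjusted p = 0.0251, adjusted p = 1.00). *Ifit1bl1*, a member of the IFIT family that binds foreign RNA, had 59.3, 119.8, 85.4 and 103 CPM in WT and 93.6, 147, 173 and 236 CPM in knockout mice (log2 fold change 0.82, standard error 0.30, unadjusted p = 0.0240, adjusted p = 1.00). In both genes the lowest knockout mouse, *MiR-29ab1*-/- mouse 1, lay within the WT range. *Ifitm3*, at chr7:141009586-141010770, had 32.5, 41.7, 46.1 and 31.3 CPM in WT and 39.0, 49.3, 68.1 and 98.7 CPM in knockout mice (log2 fold change 0.75, standard error 0.28, unadjusted p = 0.0253, adjusted p = 1.00). *Xaf1*, a gene named for binding an inhibitor of apoptosis, had 17.5, 22.2, 23.03 and 24.3 CPM in WT and 20.5, 25.3, 44.6 and 46.4 CPM in knockout mice (log2 fold change 0.65, standard error 0.26, unadjusted p = 0.0331, adjusted p = 1.00). For each of these 4 genes, mice 2, 3 and 4 of the knockout group stood above all WT mice and mouse 1 did not.

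**Figure D1:**
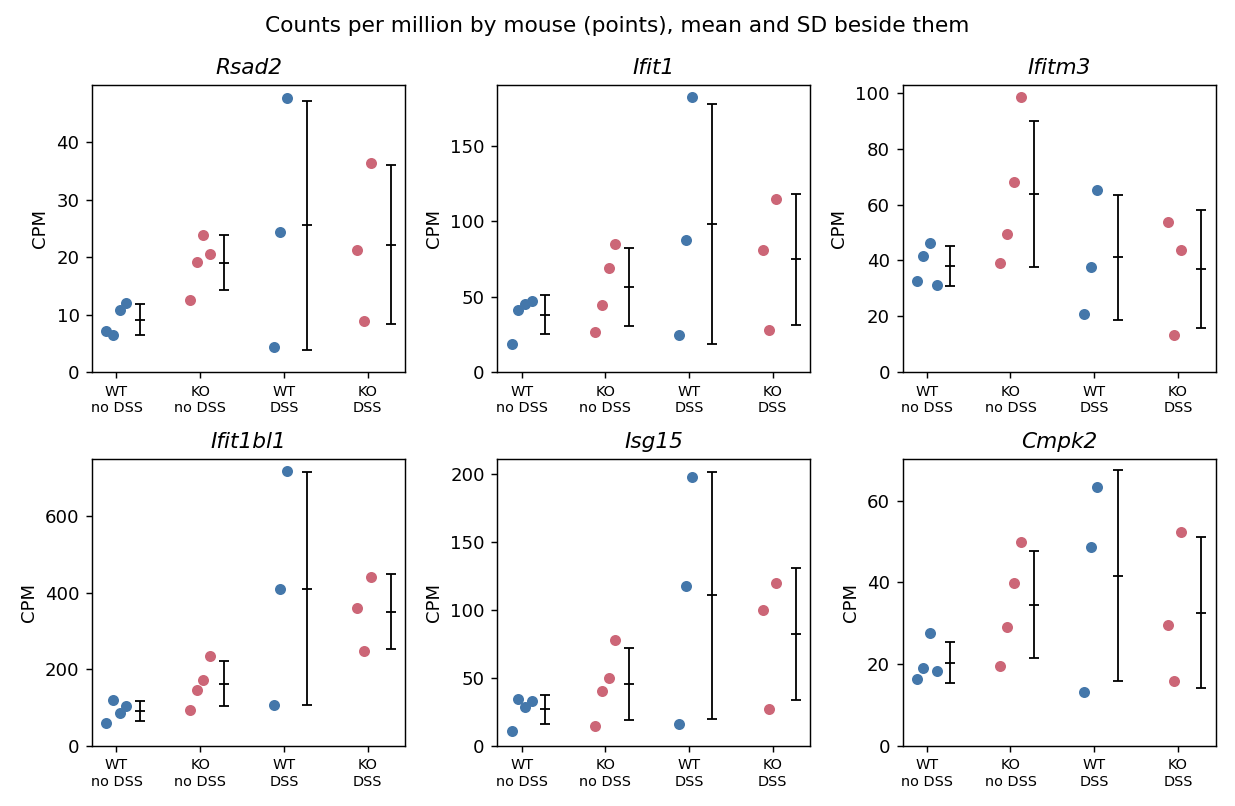
CPM of 6 genes in each mouse (vertical axes, starting at 0), with WT in blue and *MiR-29ab1*-/- (KO) in red, without DSS and after 3 days of 3.5% DSS. Points are mice, and the bar beside them is the mean with its SD. The *Rsad2* points without DSS are the only ones here in which the genotypes do not overlap.

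*Ifit1*, the defining IFIT gene, which recognises viral RNA caps, lies at chr19:34640871-34650009. It had 18.9, 41.3, 44.9 and 47.0 CPM in WT and 26.8, 44.5, 69.1 and 85.0 CPM in knockout mice. The genotypes overlapped and the difference did not pass the test, with means of 38.0 ± 13.0 and 56.3 ± 25.8 CPM (SD, n = 4 each) and a log2 fold change of 0.57 (standard error 0.40, unadjusted p = 0.199, adjusted p = 1.00).

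**Figure D2:**
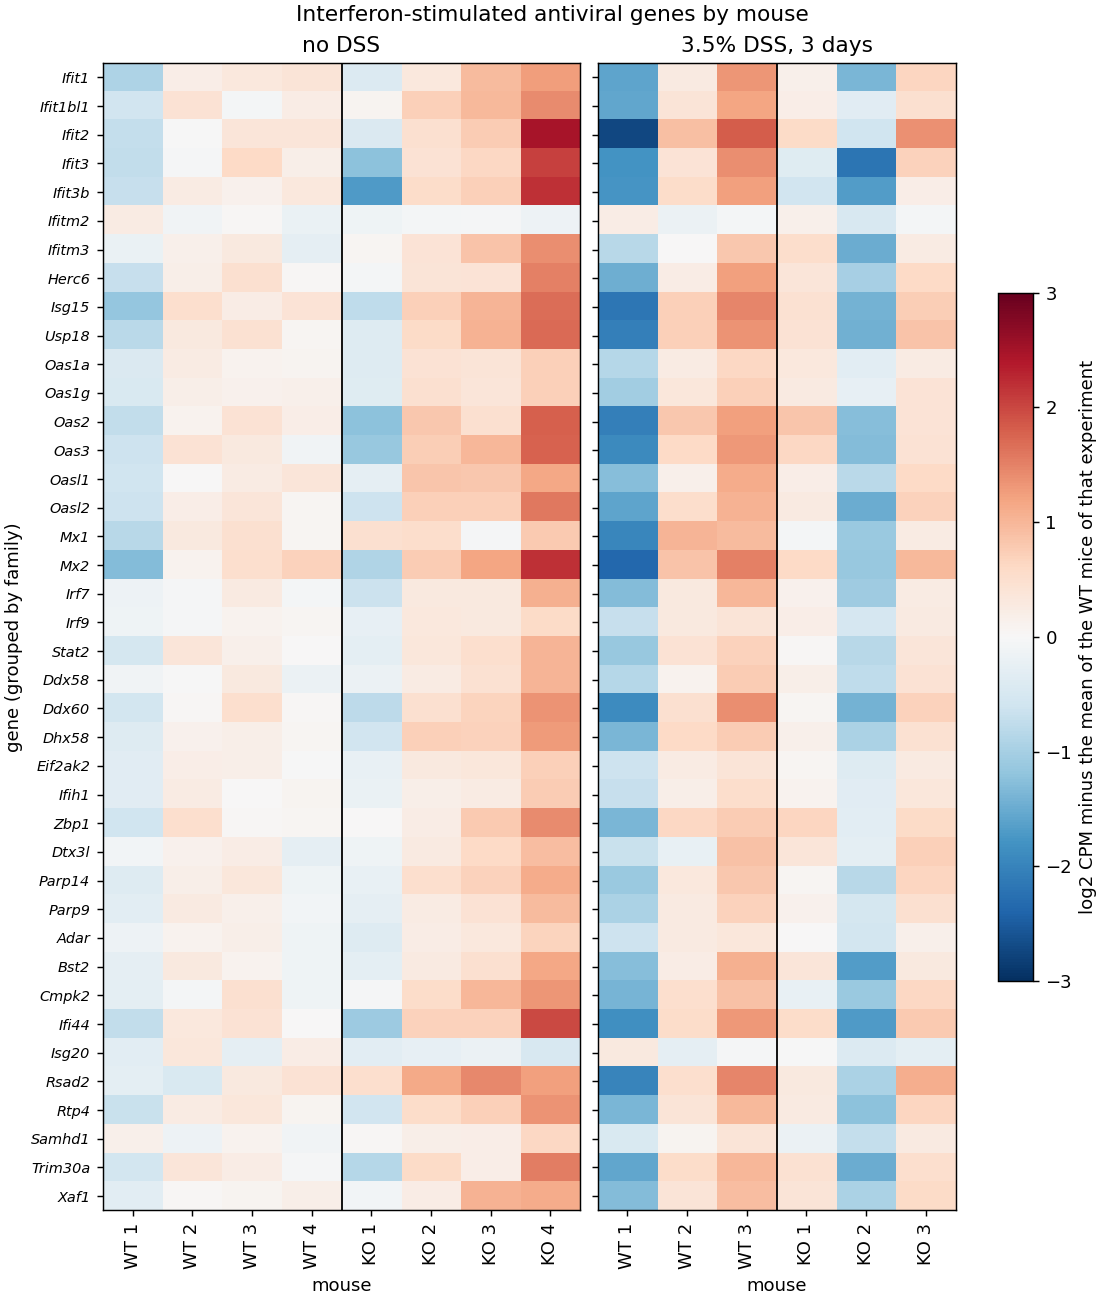
Log2 CPM of the 40 genes (rows, grouped by family) in each of 14 mice (columns), shown as the difference from the mean of the WT mice of the same experiment (blue below, red above). KO marks *MiR-29ab1*-/- mice. Columns are far more uniform than rows: knockout mouse 4 without DSS is red and WT mouse 1 and knockout mouse 2 after DSS are blue across nearly all genes.

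By role, all 5 IFIT genes (*Ifit1*, *Ifit1bl1*, *Ifit2*, *Ifit3*, *Ifit3b*) had log2 fold changes above 0, from 0.57 to 1.17, with 1 called. Of the IFITM pair, *Ifitm3* was called and *Ifitm2* had a log2 fold change of -0.10 (unadjusted p = 0.372). *Isg15*, the ubiquitin-like protein, *Usp18*, the protease that removes it, and *Herc6* ranged from 0.63 to 0.85 with none called. The 6 OAS genes, of which *Oas1a*, *Oas1g*, *Oas2* and *Oas3* belong to the synthetases that activate RNase L, ranged from 0.31 to 0.86 with none called. *Mx1* and *Mx2* had 0.39 and 1.00, and the factors *Irf7*, *Irf9* and *Stat2* ranged from 0.26 to 0.43, with none called. The sensors of viral nucleic acid *Ddx58*, *Ifih1*, *Dhx58* and *Zbp1*, the kinase gene *Eif2ak2* and the helicase gene *Ddx60* ranged from 0.27 to 0.67, and the ADP-ribosylation genes *Parp9*, *Parp14* and their partner *Dtx3l* from 0.38 to 0.56, again with none called. Among the 10 other effectors 3 were called (*Rsad2*, *Cmpk2*, *Xaf1*), and *Isg20*, an exonuclease gene, had the lowest value of the 40 at -0.33 (standard error 0.16, unadjusted p = 0.0644). The medians ran from 0.33 in the IFITM pair and 0.37 in the factors to 0.82 in the IFIT genes, a description for which no test was made.

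**Figure D3:**
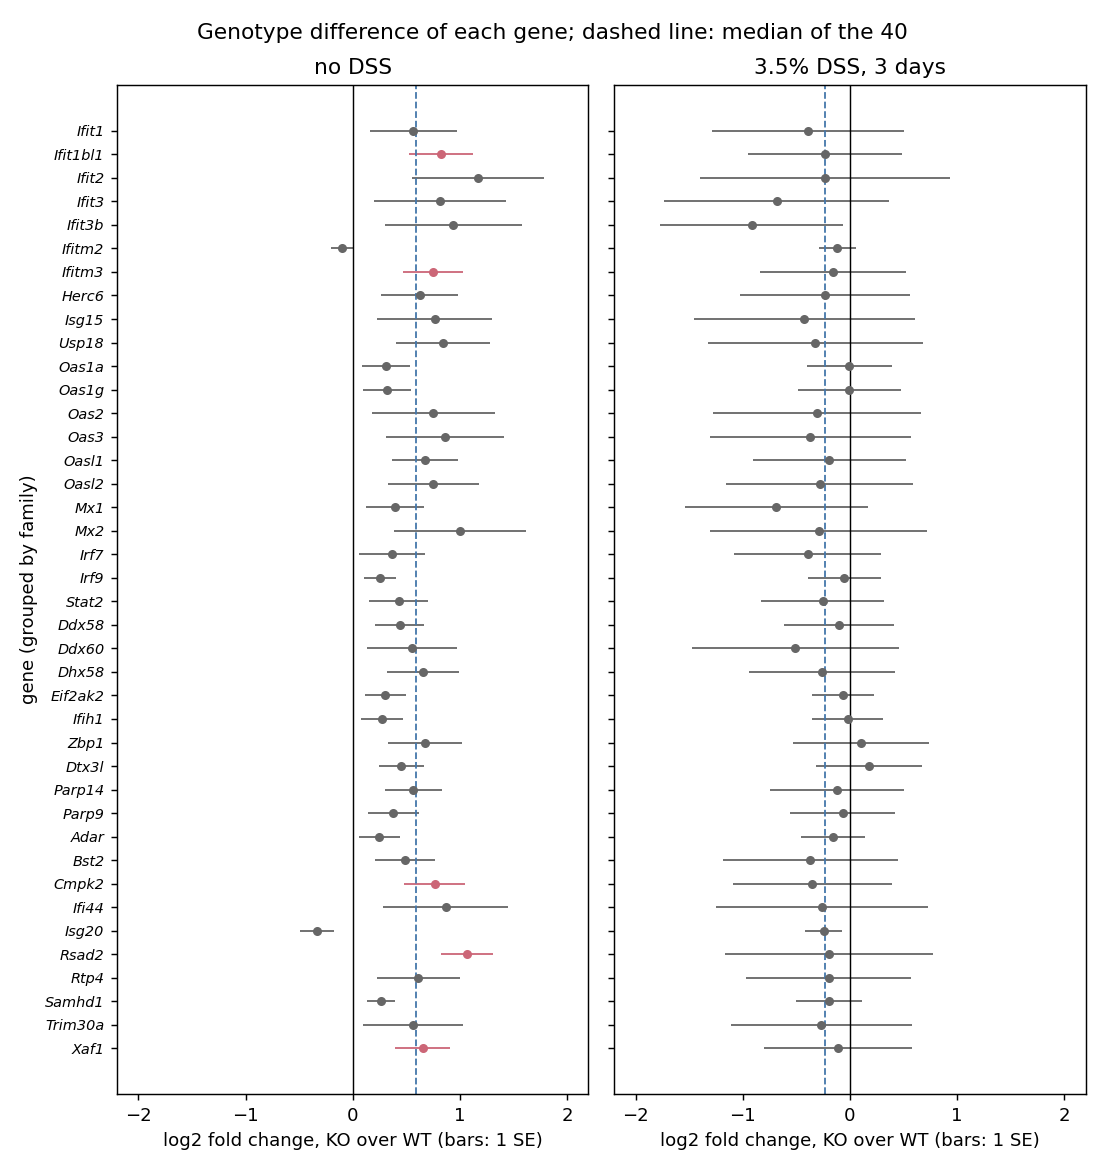
Log2 fold change of *MiR-29ab1*-/- (KO) over WT for each of the 40 genes with 1 standard error, without DSS (left) and after DSS (right). Red points have an unadjusted p under 0.05 in edgeR's test, and the dashed lines are the medians of 0.59 and -0.23. The standard errors are wider after DSS.

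The difference without DSS was uneven across the knockout mice. *MiR-29ab1*-/- mouse 4 had the highest level of 37 of the 40 genes, and the mean of its log2 levels over the group was 1.22 above the WT mean, a 2.32-fold level. Mice 2 and 3 stood 0.45 and 0.60 above it, and mouse 1 stood 0.40 below it (a value of -0.40). Among WT mice, mouse 1 stood lowest at -0.47, and mice 2, 3 and 4 lay between 0.072 and 0.24. WT mouse 1 and knockout mouse 1 were the 2 lowest mice for 30 of the 40 genes. The summed level of the 40 genes ran from 1491 to 2235 CPM in WT and from 1533 to 4229 CPM in knockout mice.

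The number of genes called depended on single mice. Without knockout mouse 1 the test called 36 of the 40 genes higher, with a median log2 fold change of 0.83, and without knockout mouse 4 it called 2 (*Rsad2* and *Ifitm3*), with a median of 0.23. Without knockout mouse 3 it called 1 (*Rsad2*), and without WT mouse 1, 2 or 4 it called 3 each time. Without WT mouse 1 the 3 were *Rsad2* and *Samhd1*, higher, and *Isg20*, lower, and the median was 0.45. *Rsad2* was called in each of the 8 fits that left out 1 mouse (unadjusted p from 3.1e-04 to 0.00456), and no gene of the 40 reached an adjusted p under 0.05 in any of them. Over these fits, 281 to 422 of the 15617 to 15777 tested genes were called higher and 170 to 336 lower. With DESeq2 11 genes were called. With no filter on low counts 3 were called, *Rsad2* and *Samhd1*, higher, and *Isg20*, lower. Over all alternative settings, 278 to 703 of the 13713 to 29573 tested genes were called higher and 170 to 396 lower. No gene was called in the model over all 14 mice.

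Markers of immune cells also differed between these mice. The summed level of 8 T cell genes was 174 CPM in knockout mouse 4, the highest of the 8 mice, 32.7 to 85.3 CPM in the other knockout mice, and 38.9 to 146 CPM in WT mice, where the highest was mouse 1. The 4 B cell genes summed to 16.6 CPM and the 3 plasma cell genes to 23.7 CPM in knockout mouse 4, with 2.41 to 5.61 CPM and 4.38 to 9.47 CPM in the other knockout mice, and 4.74 to 9.42 CPM and 3.27 to 8.77 CPM in WT mice. Of the genotype differences in these lists, 0 of the 8 T cell genes, 0 of 4 B cell genes and 0 of the 2 tested plasma cell genes passed an unadjusted p under 0.05. *Siglech*, a defining gene of plasmacytoid dendritic cells, the main interferon producers of blood, averaged 0.0689 CPM in WT and 0.105 CPM in knockout mice. Together with *Ccr9*, *Klk1* and *Tcf4*, listed for the same cells, it summed to 1476 to 1826 CPM in WT mice. In knockout mice this sum ran from 1396 CPM in mouse 4 to 2130 CPM in mouse 1. Nearly all of this sum came from the genes other than *Siglech*, so it cannot be read as a level of these cells. Of the 3 tested genes of this list 0 were called without DSS. After DSS 1 was called higher and 1 lower, where 7.23% of all tested genes were called in either direction. The part of any of the listed cell types in the result was not tested.

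After DSS the genotypes did not differ for any of the 40 genes by the test, while the mice differed far more among themselves. At an unadjusted p under 0.05 there were 0 calls among the 40 (0 also with DESeq2), where 7.23% of all 14908 tested genes were called, none had an adjusted p under 0.05 (0.0134% of all genes), and for none did the genotypes fail to overlap (11.6% of all genes). The smallest unadjusted p in the group was 0.197, for *Isg20*. The median log2 fold change of the 40 genes was -0.23, against -0.0051 over all genes, and 38 of the 40 were below 0, as were 51% of all tested genes, with *Zbp1* and *Dtx3l* at 0.10 and 0.17 as the exceptions. With standard errors from 0.17 to 1.17 on the log2 scale, differences of the size seen without DSS could not be told from none for most of these genes.

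*Rsad2* had 4.395, 24.4 and 47.7 CPM in WT mice 1, 2 and 3 after DSS, and 21.2, 8.86 and 36.4 CPM in the 3 *MiR-29ab1*-/- mice. *Ifit1* had 24.5, 87.4 and 182 CPM in WT and 81.2, 28.1 and 115 CPM in knockout mice, and *Ifitm3* had 20.8, 37.5 and 65.2 CPM in WT and 53.7, 13.2 and 43.6 CPM in knockout mice. In all 3 genes WT mouse 1 and knockout mouse 2 were the lowest 2 of the 6 mice and WT mouse 3 the highest, so the genotypes overlapped. The log2 fold changes were -0.20 (standard error 0.97, unadjusted p = 0.849, adjusted p = 0.976) for *Rsad2*, -0.39 (standard error 0.89, unadjusted p = 0.681, adjusted p = 0.934) for *Ifit1* and -0.16 (standard error 0.68, unadjusted p = 0.826, adjusted p = 0.972) for *Ifitm3*. An exact permutation test of 3 mice against 3 cannot go below p = 0.1.

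The same order of mice ran through nearly the whole group. WT mouse 1 and *MiR-29ab1*-/- mouse 2 were the 2 lowest mice for 38 of the 40 genes, and WT mouse 3 was the highest for 37. The exceptions to the first were *Ifitm2* and *Isg20*, for both of which WT mouse 1 had the highest level. Over the 40 genes, the mean log2 level was 1.32 below the WT mean in WT mouse 1 (a value of -1.32, or 0.402-fold), and 0.38 and 0.94 above it in WT mice 2 and 3. The knockout mice stood at 0.22, -0.97 and 0.49. The summed levels were 1254, 3616 and 5443 CPM in WT mice and 3290, 1658 and 3945 CPM in knockout mice.

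*Ifit2* had the widest spread of the 40 in WT mice after DSS, with 8.46, 103.9 and 197 CPM, a ratio of 23.2 between the highest and the lowest mouse. Over the 40 genes the median of this ratio was 4.98 in WT and 2.80 in knockout mice after DSS, against 1.28 and 1.29 over all tested genes. Without DSS it was 1.86 in WT and 2.61 in knockout mice, against 1.41 in both over all tested genes. The median SD of log2 CPM of the 40 genes within a group was 0.39 and 0.59 without DSS and 1.20 and 0.78 after DSS, where all tested genes had 0.22, 0.22, 0.19 and 0.19. After DSS all 40 genes had an SD above the median of all tested genes in both genotypes. *Ifitm2*, with a ratio of 1.30 in WT mice after DSS and 1.08 in knockout mice without DSS, was among the steadiest of the group, and *Ifit3b* reached 14.8 in knockout mice without DSS.

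**Figure D4:**
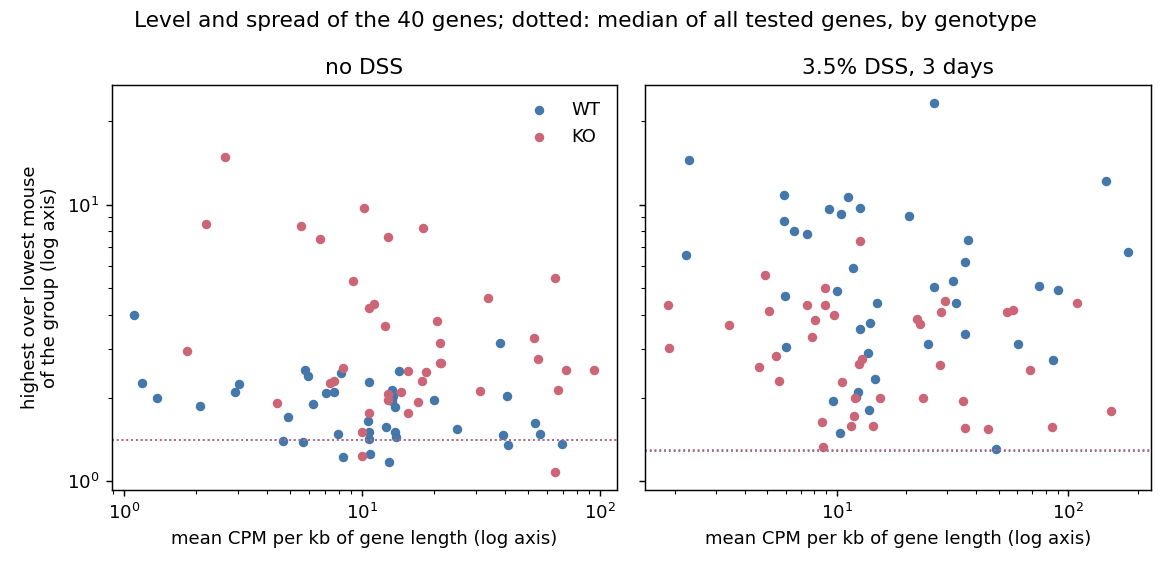
Mean level per kb of gene length (horizontal, log axis) against the ratio of the highest to the lowest mouse of a group (vertical, log axis) for the 40 genes, in WT (blue) and *MiR-29ab1*-/- (KO, red) mice. Dotted lines give the median ratio of all tested genes, 1.41 without DSS and 1.28 to 1.29 after DSS. Most points lie above them at every level.

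The sign of the difference after DSS rested on single mice. Without WT mouse 1 the median log2 fold change was -0.68, with 2 genes called lower (*Mx1* and *Ifit3b*), and without WT mouse 3 it was 0.30, with 36 of the 40 genes above 0. Without knockout mouse 2 it was 0.11, with 31 genes above 0, and without knockout mouse 3 it was -0.53. Over the fits with a mouse left out, 215 to 1242 of the 15276 to 15309 tested genes were called lower and 268 to 1288 higher. *MiR-29ab1*-/- mouse 2 had 20.2% of its reads on mitochondrial genes, and WT mouse 1 had 8.81%. Their mean log2 levels over the 40 genes were -0.97 and -1.32 from the WT mean. With the mitochondrial genes left out before scaling, the median was -0.23 and no gene was called. Neutrophil markers (*S100a8*, *S100a9*, *Csf3r*, *Ly6g*) summed to 238 CPM in knockout mouse 2, the highest of the 6 mice, and to 45.4 CPM in WT mouse 1, the lowest, and 1 of the 4 was called higher in knockout mice. The 8 T cell genes summed to 76.2 and 46.3 CPM in these mice, within the range of the other 4 (38.6 to 128 CPM). Of these 8 genes, 1 was also called higher in knockout mice, and their median log2 fold change was 0.58. Over all tested genes, 7.23% were called in either direction. The part of these cells and of RNA quality in the low levels was not tested.

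**Figure D5:**
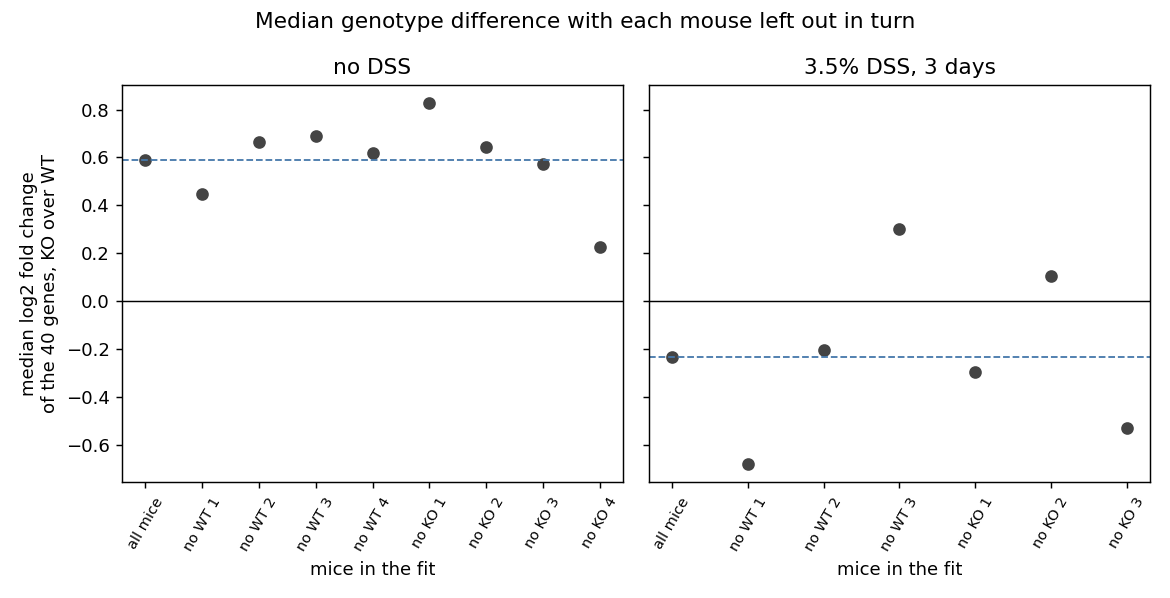
Median log2 fold change of the 40 genes, *MiR-29ab1*-/- (KO) over WT, with all mice (dashed line) and with each mouse left out in turn. Without DSS the values run from 0.23 to 0.83 and stay above 0, and after DSS they run from -0.68 to 0.30.

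Whether the genotype difference itself changed with DSS was tested in 1 model over all 14 mice and 16370 genes. For 39 of the 40 genes the difference was lower after DSS than without it (median -0.85 on the log2 scale, against -0.0013 over all genes), but 0 passed an unadjusted p under 0.05 (0 also with DESeq2), where 4.03% of all tested genes did. For *Rsad2* the change in log2 fold change was -1.25 (standard error 0.92, unadjusted p = 0.198), for *Ifitm3* -0.90 (standard error 0.69, unadjusted p = 0.216) and for *Ifit1* an unadjusted p of 0.338 was found, all with an adjusted p of 0.987. The smallest p was that of *Ifit3b* (0.122). Without WT mouse 1 of the DSS experiment 7 genes were called, *Rsad2* among them, and without knockout mouse 1 of the first experiment and knockout mouse 3 of the second, 1 each (*Ifit3b* and *Samhd1*). Over the fits with a mouse left out, 248 to 938 of the 16229 to 16947 tested genes were called lower and 162 to 555 higher. The loss of the call of *Rsad2* after DSS is therefore not shown to be a difference between the experiments.

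The genes upstream of the group were read from a list of the pathway. Of 21 interferon genes, 17 had no read in any of the 8 mice without DSS, among them *Ifnb1*, and 19 had none in the 6 mice after DSS, where a count of 0 allows up to 3 reads per mouse. *Ifng*, the type II interferon, had 5, 2, 3 and 0 reads in WT and 0, 2, 7 and 26 reads in knockout mice without DSS, too few for the filter, and the 26 reads were in knockout mouse 4. After DSS it had 14, 10 and 11 reads in WT and 26, 17 and 14 in knockout mice (log2 fold change 0.87, standard error 0.45, unadjusted p = 0.0825, adjusted p = 0.672). The only reads of *Ifnl3* and *Ifna2* without DSS, 3 and 1, were also in knockout mouse 4. *Ifnk*, the remaining interferon gene with reads, had 1, 4, 2 and 0 reads in WT and 6, 2, 3 and 2 in knockout mice, with the most in knockout mouse 1.

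The calls in the following short lists stand beside 2.09% of all tested genes called higher and 1.58% called lower without DSS, and 7.23% called in either direction after DSS. Of the 6 interferon receptor genes none was called without DSS and *Ifnlr1*, the receptor chain for type III interferon, was called higher after DSS, with 14.6, 16.7 and 16.2 CPM in WT and 18.5, 20.04 and 18.9 CPM in knockout mice (log2 fold change 0.28, standard error 0.12, unadjusted p = 0.0431, adjusted p = 0.668). *Ifnar1* had 41.9 ± 3.38 and 44.1 ± 2.65 CPM (SD, n = 4 each) in WT and knockout mice without DSS (unadjusted p = 0.430). Of 15 tested signalling genes 1 was called without DSS, *Irf1*, a factor induced by interferons, with 90.5 ± 4.95 CPM in WT and 108 ± 11.8 CPM (SD, n = 4 each) in knockout mice (log2 fold change 0.26, standard error 0.097, unadjusted p = 0.0211, adjusted p = 1.00), and 0 of 16 were called after DSS. The kinase genes *Jak1* and *Tyk2* had log2 fold changes of 0.036 and 0.077 without DSS and 0.049 and -0.062 after it. *Ptpn2*, a phosphatase that acts on JAK1, was the only one of 4 inhibitor genes called, lower in knockout mice without DSS (log2 fold change -0.24, standard error 0.097, unadjusted p = 0.0293, adjusted p = 1.00).

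A further 47 interferon-stimulated genes that are not in the group were read from another list, which was also chosen with earlier results of these data known. Without DSS 4 of 40 tested were called higher and 0 lower (2.09% and 1.58% of all tested genes), 38 had a log2 fold change above 0 (49.5% of all), and their median was 0.37. *Mov10*, an RNA helicase, had 51.8, 44.2, 49.998 and 37.8 CPM in WT and 66.5, 69.7, 69.3 and 81.6 CPM in knockout mice, with no overlap (log2 fold change 0.64, standard error 0.11, unadjusted p = 1.7e-04, adjusted p = 0.368). The other 3 were *Gm4951*, *Tap1* and *Trim25*, with log2 fold changes of 2.61, 0.95 and 0.39. After DSS 1 of 44 tested was called (7.23% of all tested genes), *Ifitm1*, higher at a log2 fold change of 1.37 (standard error 0.57, unadjusted p = 0.0440, adjusted p = 0.668), 22 of the 44 were above 0, and the median was 0.015.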

How the data were processed

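The authors deposited raw read counts per gene for each mouse, without normalization, in a table for each experiment, with gene length in bases as another deposited column. Their notes name HISAT2 and DESeq2; versions, counting tool, strand use and build are not given in the sources used here. Of the 40 genes, 39 had the start and end of GENCODE vM21 (GRCm38) in each table. FPKM values and the authors' own fold changes and p-values were deposited and not used. Columns of the DSS table match a group but no single labelled mouse, so its own mouse numbers are used.

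Counts were filtered with filterByExpr (minimum count 10, minimum total 15), scaled by TMM and tested with edgeR 4.0.16 (R 4.3.3, glmQLFit robust, glmQLFTest, Benjamini-Hochberg over all tested genes) within each table, and over genes in both tables for the interaction. Log2 CPM used a prior count of 2. The script was tested on simulated data. DESeq2 1.42.0, RLE size factors, other filters, 1 model of 14 mice, a replicate block and leaving out each mouse were alternatives. Values per mouse are given for *Ifit1*, *Rsad2*, *Ifitm3* and genes with an unadjusted p under 0.05, with *Ifit2* added after its values were seen, and others by range. Non-members were named from the pathway list, and other interferon-stimulated genes where p was under 0.05. Members, lists and tests were chosen with earlier results of these data known. Some items are not reported here.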

Additional observations from a re-analysis of the deposited data

Results flagged for a closer look

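Of 80 groups of 4 mice (the 40 genes in each genotype without DSS), 1 held a mouse whose gap to its nearest neighbour, divided by the range of the group, was above Dixon's critical value. This was *Oas1g* in WT mouse 1, at 42.1 CPM, where the highest WT mouse had 64.8 CPM (a gap of 0.943 of the range). Chance flags about 1 in 20 groups, and *Oas1g* shares 45.7% of its stretches of 50 bases with other genes.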

How the results depend on the processing

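Without DSS, the 5 genes called became 11 with DESeq2 and 3 with no filter on low counts, of which *Isg20* was lower. They became 0 with all 14 mice in 1 model, and 1 to 36 with a mouse left out. RLE size factors, at least 10 counts in every mouse and mitochondrial genes left out (chosen after seeing the data) gave the same 5 genes. The replicate block called 18, but no label says that same-numbered mice are pairs. Deviations of same-numbered mice over all tested genes correlated at -0.030, 0.149, -0.194 and -0.127. These values cannot settle whether such mice shared a litter. No paired analysis was made after DSS, because its column numbers match no number in the labels. Leaving out a mouse moved the median log2 fold change over 0.23 to 0.83 without DSS, -0.68 to 0.30 after DSS and -1.26 to -0.27 for the interaction, and the genes called after DSS from 0 to 2 and in the interaction from 0 to 7. Single genes with reversed signs included *Ifitm2* without WT mouse 1 (1.1e-04, range from -0.16 without DSS), and after DSS *Ifit1*, *Rsad2* and *Ifitm3* without WT mouse 3 (0.42, 0.63 and 0.34) and without knockout mouse 2 (4.6e-04, 0.18 and 0.24), where the lowest values with a mouse left out were -0.85, -0.76 and -0.53. The other settings without a mouse left out changed no call after DSS or in the interaction. All tested genes at an unadjusted p under 0.05 without DSS ranged over 278 to 703 higher and 170 to 396 lower, and after DSS over 268 to 1288 and 215 to 1242. After DSS, 36 and 31 of the 40 genes were above 0 without these 2 mice in turn. Precision is limited by 3 mice a group after DSS, and the part of depth was not tested.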
